A study of Arabidopsis thaliana with 22 samples.

Results

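In Arabidopsis roots some genes for cold and dehydration protective proteins gave strong signals and others hardly any. The genes described here are 10 of them: LTI30, COR47, COR15A, COR15B, LEA18, LEA4-5, DI21, HIS1-3, XERICO and HVA22C. Each is read by the 1 probe set that the platform annotation assigns to that symbol and to no other gene, so they take 10 of the 22746 probe sets that are not array controls. The roots came from Arabidopsis thaliana Col-0 plants aged 10 days. RNA was hybridised to 22 arrays, 2 for each of 11 groups, and the arrays of a group carry the letters A and B. Of the groups, 5 had been moved to MGRL agar with 0 uM sulfate (sulfate-free) and 5 to the same agar with 1500 uM sulfate (replete), for 2, 4, 8, 12 or 24 h each, and the remaining group had no treatment (untreated, 0 h, titled with 1500 uM sulfate). The series asks how roots respond to sulfate limitation.

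Plants facing cold or water loss accumulate hydrophilic proteins that protect membranes and other proteins while cells dehydrate. Many of their genes are switched on by CBF/DREB transcription factors, which act in the cold, or by abscisic acid, the hormone of water deficit. LTI30 (AT3G50970) and COR47 (AT1G20440) encode dehydrins. COR15A (AT2G42540) and its chromosomal neighbour COR15B (AT2G42530) encode small chloroplast proteins that stabilise membranes during freezing. LEA18 (AT2G35300) and LEA4-5 (AT5G06760) belong to the late embryogenesis abundant (LEA) proteins of drying seeds, and DI21 (AT4G15910) is a drought-induced gene. HIS1-3 (AT2G18050) encodes a linker histone induced by drought, XERICO (AT2G04240) a RING-H2 protein that raises abscisic acid levels, and HVA22C (AT1G69700) a homologue of HVA22, a gene of barley induced by abscisic acid.

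Levels are given as linear MAS5 signals, and the mean of every array, trimmed by 2% at each end, was 100. Differences are given on a log2(signal + 11) scale from 1 limma fit of all arrays, with the standard error (SE), and a call means a Benjamini-Hochberg adjusted p under 0.05 over the 13648 probe sets that passed a filter on low values. Whether arrays A and B came from separate cultures is not stated, so the p-values measure the spread between these arrays, which may be technical. Where all arrays of a time are said to lie above or below the untreated ones, this describes the printed values. It carries no test, and the share of all probe sets doing so is not given. Counts of genes at an unadjusted p under 0.05 also come without that share. The 10 genes split evenly at the filter, which lay at a signal of about 27.0. LTI30, COR47, DI21, XERICO and HVA22C passed, at the 98.9, 99.6, 93.3, 88.3 and 72.6 percentiles of mean level among all probe sets. HIS1-3 lay just below it, at the 39.1 percentile, and COR15B, LEA4-5, COR15A and LEA18 were far below, at the 27.6, 16.4, 9.66 and 3.71 percentiles.

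Of the 5 genes tested, the 2 dehydrin genes, LTI30 and COR47, rose after transfer. After 2 h, LTI30 had signals of 2769 and 2587 in sulfate-free roots and 3576 and 3112 in replete roots, against 779 and 764 in untreated roots. COR47 had signals of 2800.0 and 2609 in sulfate-free roots and 3529.8 and 3191 in replete roots at 2 h, against 1701 and 1606 in untreated roots. For both genes all 4 transferred arrays of 2 h lay above both untreated arrays. Over both media, LTI30 was 3.83-fold higher (log2 1.94, SE 0.19, adjusted p = 3.83e-06) and COR47 1.82-fold higher (log2 0.86, SE 0.13, adjusted p = 3.99e-04). These were the 2 rises among the 5 genes tested, and 3.76% of all probe sets tested were called higher at 2 h. The genes were chosen with earlier results of these data known, so an excess over that share was not tested. The 95% interval of the difference was 1.54 to 2.33 for LTI30 and 0.59 to 1.13 for COR47; the difference between the genes was not tested. In whole roots, more RNA per cell and more cells of an expressing type cannot be told apart. Untreated roots were sampled at 1 time, so an effect of the move and one of the hours passed cannot be told apart either.

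**Figure D1:**
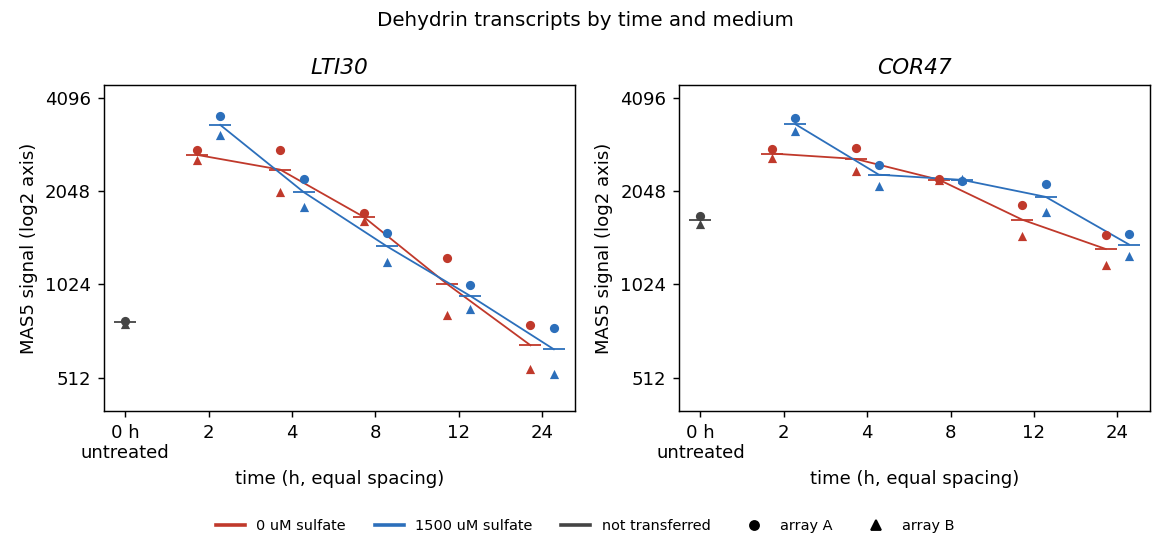
MAS5 signal of LTI30 (left) and COR47 (right) on a log2 axis against the time after transfer, with 1 point per array (circle A, triangle B), horizontal ticks and lines at group means, and untreated roots at 0 h. In both media the group means after transfer were highest at 2 h and lowest at 24 h: LTI30 lay between 2587 and 3576 at 2 h and between 526.5 and 757 at 24 h.

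At the later times both signals were lower. At 4 h LTI30 stood at 2770 and 2028 in sulfate-free roots and at 2241 and 1821 in replete roots. The rise over untreated roots was still called (log2 1.49, SE 0.19, adjusted p = 1.18e-04), as was that of COR47 (log2 0.56, SE 0.13, adjusted p = 0.017), beside 2.92% of all probe sets called higher at 4 h. COR47 stood at 2821 and 2376 in sulfate-free roots and at 2490 and 2132 in replete roots. This call was lost when single arrays were left out: the adjusted p was 0.0623 without array A of sulfate-free roots at 4 h, 0.052 without array A of replete roots at 4 h, and 0.134 and 0.153 without untreated array A or B. Set against untreated roots alone, the replete arrays of 4 h put COR47 higher by 0.48 (SE 0.15, adjusted p = 0.124), and the sulfate-free arrays by 0.64 (SE 0.15, adjusted p = 0.0234). For the replete arrays the adjusted p was 0.0108 with the letter A or B as a factor and 0.0776 with arrays of equal time and letter as a random block.

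At 8 h LTI30 had signals of 1742 and 1637 in sulfate-free roots and 1503 and 1211 in replete roots, all above the untreated arrays. It was the 1 gene of the 5 still called, 0.96 higher on the log2 scale (SE 0.19, adjusted p = 0.00403), while 3.52% of all probe sets were called higher. Without untreated array A its adjusted p was 0.0619. COR47 lay between 2207 and 2240.3 on the 4 arrays of 8 h, again all above the untreated ones. Its log2 difference of 0.43 (SE 0.13) had an adjusted p = 0.0554 without a block and 0.00437 with the letter as a factor, a fit that calls 7.13% of probe sets higher. The random block did not call it (adjusted p = 0.0535). It also fell under the threshold when 1 of the 4 sulfate-free arrays of 12 and 24 h was left out (adjusted p between 0.0444 and 0.045).

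By 12 h the levels had come back near those of untreated roots. LTI30 had 1241 and 813 in sulfate-free roots and 1023 and 855.5 in replete roots, still above both untreated arrays. Without a block, no gene of the 5 was called (0 of 5, and 0 at an unadjusted limma p under 0.05). Of all probe sets, 12.6% were called in either direction at 12 h. For LTI30 the log2 difference was 0.33 (SE 0.19, adjusted p = 0.27; 0.17 to 0.48 with single arrays left out), which passed with the letter factor (adjusted p = 0.0423, 11.9% of probe sets called higher) and not with the random block (adjusted p = 0.268). COR47 overlapped the untreated arrays, with 1839 and 1470.2 in sulfate-free roots and 2164 and 1756 in replete roots, and differed by 0.11 (SE 0.13).

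At 24 h both dehydrin genes had ended below where untreated roots stood, though not by a call. LTI30 had 757 and 546 in sulfate-free roots and 738 and 526.5 in replete roots, against 779 and 764 in untreated roots. COR47 had 1482 and 1181 in sulfate-free roots and 1488 and 1264 in replete roots, against 1701 and 1606. The log2 differences of -0.28 (SE 0.19, adjusted p = 0.601) and -0.29 (SE 0.13, adjusted p = 0.414) did not pass. Without a block, none of the 5 genes was called at 24 h by limma, where 0.476% of all probe sets were. With the letter as a factor DI21 was called lower (adjusted p = 0.0109), beside 1.26% of probe sets. By unadjusted limma p, 2 of the 5 were under 0.05, COR47 (0.0364) and DI21 (0.0138), while LTI30 had 0.153. The share of all probe sets under that p is not given.

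**Figure D2:**
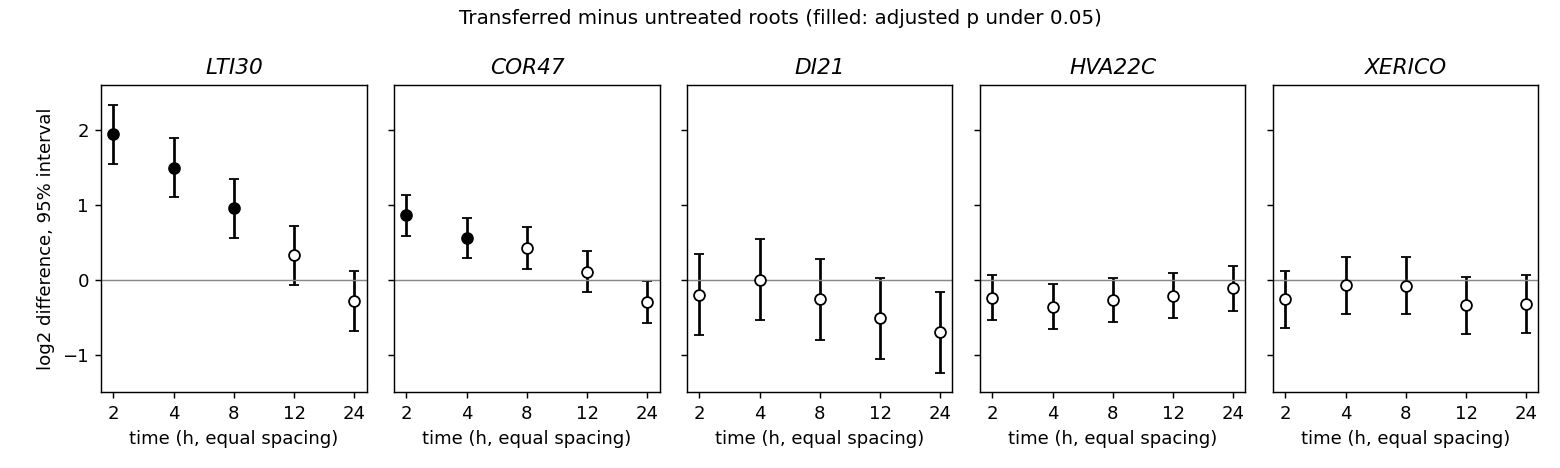
Log2 difference of transferred minus untreated roots (mean of both media at each time, 4 arrays against 2) with its 95% interval, for the 5 genes that passed the filter; filled points have an adjusted p under 0.05. LTI30 was called at 2, 4 and 8 h and COR47 at 2 and 4 h, while the open points of DI21, HVA22C and XERICO lay between 0 and -0.70.

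The levels of LTI30 and COR47 also differed among the times after transfer. The moderated F-test that the 5 times after transfer have equal levels called LTI30 (adjusted p = 1.18e-07) and COR47 (adjusted p = 5.67e-06) of the 5 genes, where 20.3% of all probe sets were called. Between neighbouring times, the fall of LTI30 was -0.45 (SE 0.15) to 4 h, -0.53 to 8 h, -0.63 to 12 h and -0.61 to 24 h. For COR47 these steps were -0.30 (SE 0.11), -0.13, -0.31 and -0.41. Only the last step was called in limma without a block, for LTI30 (adjusted p = 0.0238) and COR47 (adjusted p = 0.0267), with 2.78% of all probe sets called lower. With the random block, COR47 lost this call (adjusted p = 0.0601) and LTI30 kept it (adjusted p = 0.0486), 1.38% of probe sets being called lower. COR47 lost it with no filter too (adjusted p = 0.0587). Both genes lost the call when any of 4 arrays was left out, with adjusted p between 0.103 and 0.133: array A of 12 h or array B of 24 h, in either medium.

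The earlier steps of LTI30 and COR47 depended on how the letters were handled. Without a block, limma called 0 of the 5 genes lower from 2 to 4 h, 4 to 8 h or 8 to 12 h. Of all probe sets, 1.23%, 1.3% and 0.454% were called lower. Unadjusted, 2, 1 and 2 of the 5 had limma p under 0.05, with no share of all probe sets given at that p. With the letter as a factor LTI30 fell at each step (adjusted p = 0.0068, 0.00158 and 6.59e-04), and COR47 fell from 2 to 4 h (0.0271) and from 8 to 12 h (0.0335). That fit called 2.59%, 3.51% and 1.82% of probe sets lower. The random block called none of these steps, with adjusted p = 0.374, 0.171 and 0.184 for LTI30, and 0.424 and 0.569 for COR47. Leaving out array B of sulfate-free roots at 4 h gave the step of LTI30 to 8 h an adjusted p = 0.0456, and leaving out array A of 12 h in that medium gave its step to 12 h 0.0448. COR47 at 4 and 8 h did not differ beyond its spread in either fit (log2 -0.13, 95% interval -0.36 to 0.09).

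The later levels can be put as shares of each gene's own rise at 2 h on the log2 scale. LTI30 held 76.9% of it at 4 h and 49.5% at 8 h, and COR47 65.0% and 49.5%. These shares reuse the same untreated and 2 h arrays and carry no test. Over the 11 group means of log2 signal, LTI30 and COR47 correlated with r = 0.97. That is a description without a test, both genes being read on the same arrays. Among 7328 other named probe sets kept, the profile most like that of LTI30 was AT4G20000 (r = 0.957) and that most like COR47 was AT2G31800 (r = 0.950). AT4G20000 was far dimmer, averaging 52.0 ± 22.9 in sulfate-free and 46.7 ± 6.07 in replete roots at 2 h, against 21.0 ± 9.78 in untreated roots (SD, n = 2 each).

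DI21, the drought-induced gene, was not called higher than in untreated roots at any time. Its signals at 2 h were 520 and 361 in sulfate-free roots and 533 and 378 in replete roots, against 492 and 528 in untreated roots. At 24 h they were 315 and 285 in sulfate-free roots and 338 and 299.0 in replete roots, all 4 below the untreated arrays. Against untreated roots the log2 difference was -0.20 at 2 h and -0.00 at 4 h. It was -0.26, -0.51 and -0.70 (SE 0.26) at 8, 12 and 24 h. Without a block none of these was called (adjusted p = 0.308 at 24 h), nor was the time F-test (adjusted p = 0.109). With the letter as a factor DI21 was lower at 12 h (adjusted p = 0.0127, 12.0% of probe sets called lower) and at 24 h (adjusted p = 0.0109, 1.26% called lower), and the time F-test was passed (adjusted p = 7.98e-04, 36.2% called). The random block called none of these (adjusted p = 0.176 at 12 h, 0.322 at 24 h and 0.166 for the F-test), and without array B of replete roots at 4 h the unblocked F-test had an adjusted p = 0.0364. Array A was above array B for DI21 in all 10 transferred groups, by 0.14 to 0.76 on the log2 scale, and below it in untreated roots (-0.10).

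HVA22C and XERICO had no called difference. HVA22C lay between 82.4 and 145 on all 22 arrays; at 4 h it had 82.4 and 98.2 in sulfate-free roots and 108 and 109 in replete roots, against 145 and 116 in untreated roots. All transferred arrays of 4 h were below the untreated ones, with a log2 difference of -0.36 (SE 0.14, adjusted p = 0.217). At 24 h HVA22C overlapped the untreated arrays, at 126 and 107 in sulfate-free and 139.8 and 108.5 in replete roots (log2 -0.11, SE 0.14). XERICO lay between 197 and 336. At 12 h XERICO had 229 and 234 in sulfate-free roots and 238 and 207 in replete roots, against 322 and 259.7 in untreated roots. Its log2 difference was largest at that time (-0.34, SE 0.18, adjusted p = 0.235). Neither gene passed the F-test over time (adjusted p = 0.493 for HVA22C and 0.372 for XERICO). Over the 11 group means, with all genes read on the same arrays, LTI30 correlated with DI21 at r = 0.66 and with HVA22C at r = -0.63. LTI30 and XERICO had r = 0.28, and COR47 and DI21 r = 0.68.

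**Figure D3:**
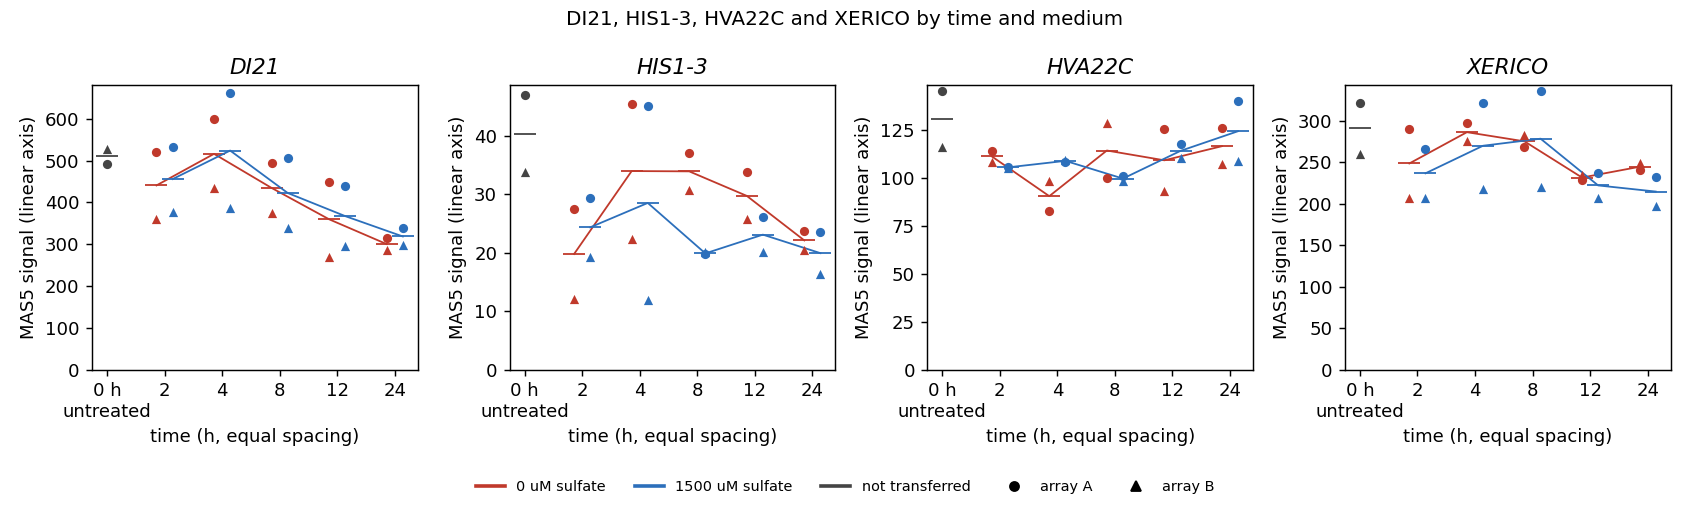
MAS5 signal on linear axes from 0 for DI21, HIS1-3, HVA22C and XERICO against the time after transfer, with 1 point per array (circle A, triangle B) and ticks and lines at group means. DI21 lay between 285 and 338 at 24 h, below both untreated arrays, and its A arrays stood above its B arrays in all 10 transferred groups.

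The linker histone gene HIS1-3 was dim and noisy. Its signals ran from 11.9 to 47.0 (median 24.7), the highest on untreated array A. At 2 h it had 27.5 and 12.1 in sulfate-free roots and 29.4 and 19.3 in replete roots, against 47.0 and 33.8 in untreated roots. At 24 h HIS1-3 lay between 16.4 and 23.7 in transferred roots. Tested without the filter, its differences were -0.66 at 2 h and -0.68 at 24 h (SE 0.31, adjusted p = 0.364 and 0.558). The other linker histone genes, AT1G06760 (H1.1) and AT2G30620 (H1.2), differed by -0.17 (SE 0.14) and -0.23 (SE 0.12) at 2 h. AT1G06760 was called lower than in untreated roots at 12 h (log2 -0.44, SE 0.14, adjusted p = 0.0447), as were 6.865% of all probe sets tested. Neither medium alone passed for it in limma (adjusted p = 0.142 for replete and 0.0722 for sulfate-free roots).

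COR15A, COR15B, LEA18 and LEA4-5 gave signals in the low part of the arrays, LEA18 the dimmest of them and COR15B the least dim. The 25th percentile of the arrays lay between 9.54 and 13.8. COR15A lay between 0.344 and 7.71 and LEA18 between 0.148 and 6.07, both below that percentile of their own array on all 22 arrays. LEA4-5 lay below it on 21 of 22, with signals between 0.499 and 15.7, the highest on the sulfate-free 2 h array A. COR15B was below it on 8 of 22, with signals between 5.36 and 18.8. So COR15A and COR15B, named for cold regulation like COR47, gave no signal here that stands clear of the low end: at 2 h COR15A averaged 3.93 ± 2.37 and COR15B 12.0 ± 1.92 in transferred roots (SD, n = 4 each), and in untreated roots 4.04 ± 0.628 and 12.6 ± 4.34 (SD, n = 2 each). The log2(signal + 11) scale understates fold changes of signals this dim.

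**Figure D4:**
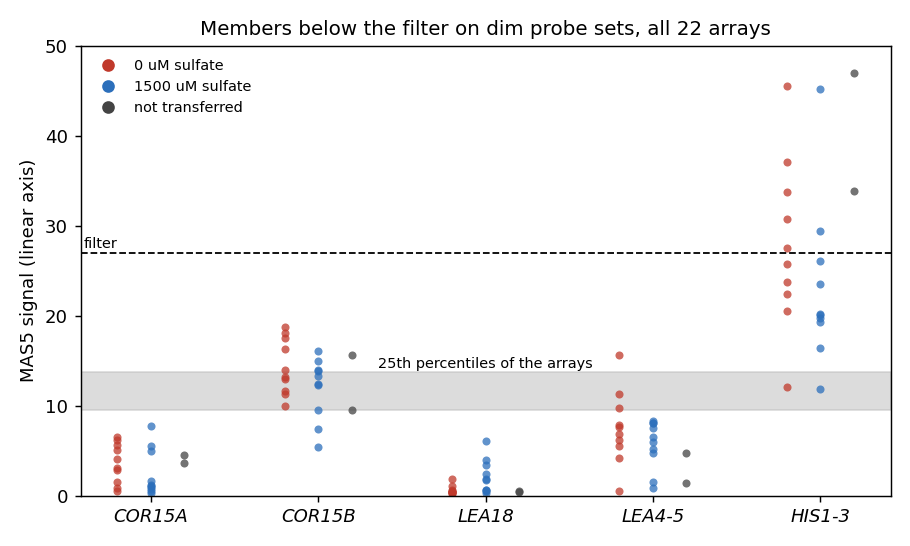
MAS5 signal of the 5 genes below the filter on a linear axis, 1 point for each of the 22 arrays, by medium; the grey band spans the 25th percentiles of the arrays and the dashed line is the filter. COR15A and LEA18 lie under the band on every array, and HIS1-3 spans 11.9 to 47.0.

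Tested without the filter, none of these 5 genes was called by limma against untreated roots at 2, 4, 8, 12 or 24 h, nor between media over the 5 times. In that fit 3.16%, 2.13%, 3.92%, 6.18% and 0.259% of all 22746 probe sets were called at the 5 times and 0.281% between media. At an unadjusted limma p under 0.05, 2 of the 5 passed at 2 h, 1 at 24 h and 1 between media. The share of all probe sets under that p is not given, so these counts have no background beside them. The smallest adjusted p in these comparisons was 0.339, that of LEA4-5 at 2 h (log2 0.53, SE 0.24), when its signals were 15.7 and 7.58 in sulfate-free and 8.03 and 6.53 in replete roots, against 4.74 and 1.37 in untreated roots.

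No difference between the media was called for any of the 10 genes over the 5 times. In limma 0 of the 5 genes that passed the filter were called at 2, 4, 8, 12 or 24 h or in the mean over times, and 0 had an unadjusted p under 0.05. Of all probe sets tested, 0% were called at 2 h and also 0% at 4 h, then 0.00733%, 0.125% and 0.359% at 8, 12 and 24 h, and 0.476% in the mean over times, so few calls were made anywhere. The F-test that the 5 differences between media are equal called 0 of the 5 as well, and 0.0806% of all. Both blocked fits called 0 of the 5 genes too, and the share of all probe sets they called between media is not given.

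Over the 5 times, LTI30 differed between sulfate-free and replete roots by 0.08 on the log2 scale (95% interval -0.13 to 0.28), COR47 by -0.09 (-0.23 to 0.05), DI21 by -0.02 (-0.30 to 0.26), HVA22C by -0.03 (-0.19 to 0.12) and XERICO by 0.08 (-0.11 to 0.28). At 24 h the intervals were wider: -0.41 to 0.50 for LTI30, -0.37 to 0.26 for COR47 and -0.70 to 0.54 for DI21. The median over the 5 genes was -0.02 in the mean over times, against 0.01 over all probe sets tested. At 2 h LTI30 differed by -0.32 (SE 0.22) and COR47 by -0.31 (SE 0.15), sulfate-free minus replete. Their unadjusted p in limma was 0.162 and 0.0518, and the adjusted p was 0.9999 for each. At 4 h both values were positive, 0.23 and 0.17. With the random block the adjusted p at 2 h was 0.975 for LTI30 and 0.864 for COR47. The intervals are from the fit without a block, so the pairing of arrays by letter is not used in their width. They bound the differences in that fit and do not show that the media act alike.

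**Figure D5:**
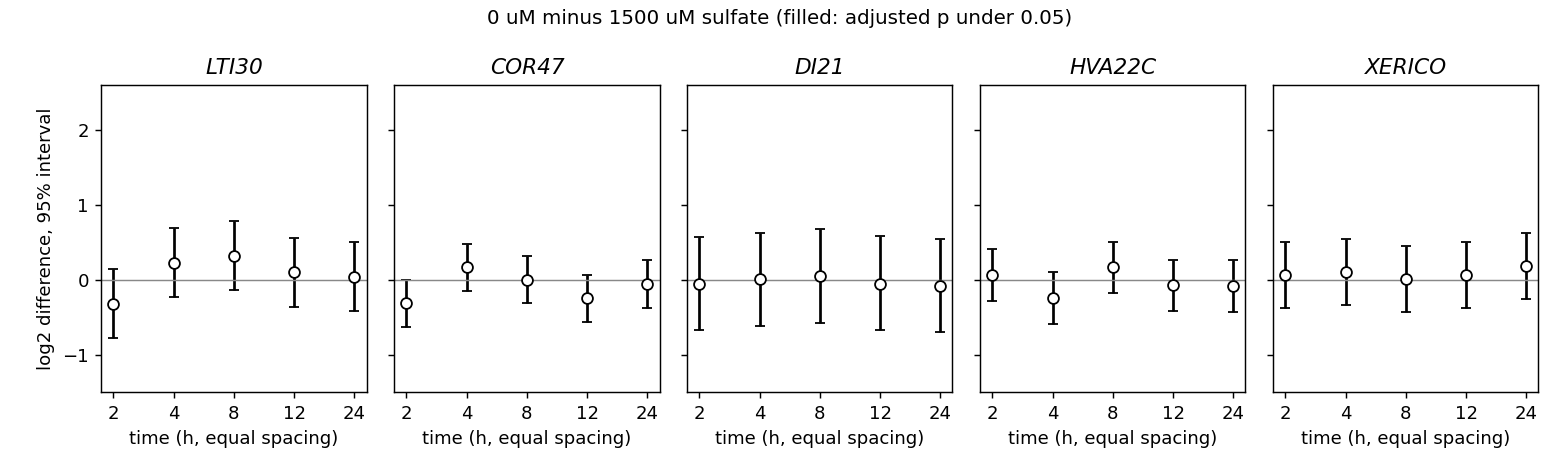
Log2 difference of sulfate-free minus replete roots (2 arrays each) with its 95% interval at each time for the 5 genes that passed the filter; no point is filled, since none had an adjusted p under 0.05. The values lie between -0.32 and 0.32, and the intervals are from the fit without a block.

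Few relatives of these genes could be set beside them. Of 105 other genes on 8 lists (CBF and other cold regulators, other cold-regulated genes, dehydrins, other LEA proteins, abscisic acid, dehydration, the HVA22 family and linker histones), 11 lay on a probe set with 1 named gene and 5 of these passed the filter. No listed regulator of the CBF or abscisic acid pathways, dehydration-responsive gene or other HVA22 gene was among the 11. Besides the linker histones, the dehydrin gene AT1G54410 differed from untreated roots by -0.19 (SE 0.23) at 2 h, and the LEA protein genes AT2G44060 and AT2G46140 by -0.00 (SE 0.09) and 0.01 (SE 0.10). None of these 3 was called at any time. COR27, another cold-regulated gene, lay below the filter, with signals from 0.328 to 52.7 around a median of 3.

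Root markers were present: PYK10 lay between 2041 and 4072 and the root hair genes EXPA7 and EXPA18 between 90.7 and 217 on all arrays. The green tissue genes on named probe sets, RCA and LHCB4.1 (2 of 9 listed), were measured too, at 65.3 to 284 and 57.1 to 190, and changed with time. RCA was lower than in untreated roots at 4, 8 and 12 h (log2 -0.80, -1.26 and -1.47, adjusted p = 0.0468, 0.00158 and 3.12e-04), and LHCB4.1 at 12 h (log2 -1.17, adjusted p = 0.00286). At 2 h, where LTI30 and COR47 were highest, RCA differed by -0.62 (SE 0.22, adjusted p = 0.118) and LHCB4.1 by -0.44 (SE 0.23, adjusted p = 0.331). Their part in the results for LTI30 and COR47 was not tested. No listed endodermis, vascular or seed marker was on a named probe set.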

How the data were processed

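The authors deposited 1 linear intensity per probe set and array. The submitters' processing notes name MAS5 as the tool; for its version and scaling target the sources used here give nothing. The authors' values already shared a trimmed mean (2% at each end), so no further scaling was applied. Arrays have no counting depth; their number limits precision. Of 22810 probe sets, 64 controls were left out. Values were put on a log2(signal + 11) scale, which understates changes of dim probe sets, and the 13648 probe sets whose mean reached the 40th percentile were fitted over 11 groups with limma 3.58.1 in R 4.3.3 (lmFit, eBayes with intensity trend, 11 residual and 5.61 prior degrees of freedom). P-values were adjusted by Benjamini-Hochberg. Figures used matplotlib 3.10.9, and the fit was tested on simulated data.

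Platform annotation gave 1 gene for 13513 probe sets and several for 503; RefSeq (TAIR10.1) gave loci for 13436. None of the 10 genes lies on a probe set with several genes. The members and lists were chosen with earlier results of these data known. The text names all 10 members, list genes that were called or serve as examples, and, for LTI30 and COR47, the most correlated other gene. Groups came from sample titles. Alternatives were pseudocounts of 1 and 50, other filters, quantile normalization, no trend, 2 blocked fits, single media or times, and each array left out.

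Arrays were taken to be paired by letter: over probe sets, deviations from the group mean of same-lettered arrays correlated between media at 1 time with r of 0.225 to 0.631, and between transferred and untreated groups with 0.112 to 0.496; 54 of all 55 pairs of groups exceeded 0.1. One block is the letter as a factor; the other is a random block (duplicateCorrelation) of the arrays that share both time and letter, with no block across times.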

Additional observations from a re-analysis of the deposited data

Results flagged for a closer look

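The moderated F-test of limma over the 5 times after transfer, described above, called marker genes besides LTI30 and COR47. It uses no untreated array, and it called 20.3% of all probe sets tested. LTI30 had an adjusted p = 1.18e-07, with differences from untreated roots of 1.94 at 2 h and -0.28 at 24 h. COR47 had an adjusted p = 5.67e-06, with 0.86 and -0.29. The green tissue genes RCA (adjusted p = 3.91e-04) and LHCB4.1 (adjusted p = 0.00659) were lowest at 12 h, at log2 differences of -1.47 and -1.17. AUR1, a kinase gene of dividing cells, had an adjusted p = 0.00813, with -0.27 at 2 h and 0.40 at 24 h. Groups of 2 arrays were too small to look for single arrays that stand apart.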

How the results depend on the processing

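No call reversed. Of 525 recomputed counts of called members, 498 stayed within 1.5 times the reported count, and of 588 recomputed member values 551 stayed on the same side of the threshold; the 2 calls at 2 h held in all of them, with LTI30 between 1.78 and 2.10 and COR47 between 0.71 and 1.02. The count at 4 h was 1 in place of 2 with replete arrays alone and lay between 1 and 2 with single arrays left out. The count of 1 at 8 h was 2 with the 60th percentile filter, with quantile normalization and with the letter factor as a replicate block, and 0 to 2 with single arrays left out. That letter factor raised the count at 12 h to 2, at 24 h to 1, and for the steps from 2, 4 and 8 h to 2, 1 and 2, where the reported counts were 0. The step from 2 to 4 h also gave 2 with quantile normalization; the steps from 4 and 8 h gave 0 to 1 with single arrays left out. For the step from 12 to 24 h the count of 2 became 1 with no filter or with time and letter as a random replicate block, and 0 to 2 with single arrays left out. Counts between media were 0 throughout. They are part of the 525 and could hardly move, since the reported fit called few probe sets there. An arm left with 1 array was assumed to vary like the others. The causes were not tested. With 2 arrays a group, the median SE was 0.172 between media at 1 time and 0.149 against untreated roots, and signals near the 25th percentile of an array bear little on changes. Among comparisons over both media the replicate blocks changed no other member's call.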

Other observations

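Array A was above array B in 10 of 10 transferred groups for LTI30, by 0.09 to 0.60 on the log2 scale, and in 9 of 10 for COR47 (-0.02 to 0.32) and for HIS1-3 (-0.02 to 1.3). For HVA22C and XERICO it was above in 7 of 10 groups each. In untreated roots the letters of LTI30 and COR47 differed by 0.03 and 0.08.

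The most similar profiles among named genes over the 11 group means were AT4G27130 for DI21 (r = 0.922), AT5G62770 for HVA22C (r = 0.873) and AT3G57790 for XERICO (r = 0.896), out of 7328 probe sets searched. DI21 and XERICO correlated with each other at r = 0.74. These are descriptions: the genes were read on the same arrays, and the letters A and B recur in every group.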
